A study of Sus scrofa with 6 samples.

Results

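Oocytes exposed to heat with nicotinamide mononucleotide (NMN) during maturation were compared with oocytes matured at the normal temperature, gene by gene, in pigs. The comparison took 4 of the 6 RNA-seq samples of the study, namely 2 of control and 2 of NMN-supplemented oocytes, and the 4713 of 29861 genes in the expression table whose mean over all 6 samples reached 1 FPKM (fragments per kilobase of transcript, scaled to the fragments mapped in the library). All samples were pig (Sus scrofa) oocytes that the labels place at the germinal vesicle (GV) stage with a time of 24 h. Per the study's methods, they came from abattoir ovaries as cumulus-oocyte complexes, and control complexes were matured in vitro at the usual culture temperature. Heat-stressed ones spent 24 h at a raised temperature and were then kept at the usual one until the stage studied. NMN-supplemented ones had the same heat with NMN in the medium. The methods describe sequencing of pooled oocytes at metaphase II, which goes against the GV label, and the NMN dose of the sequenced oocytes was not given in the sources used here. NMN-supplemented and control oocytes therefore differed in 2 things at once, heat and NMN, whose parts cannot be told apart in this contrast. The labels do not say whether the 2 samples of a group were separate collections, so P-values measure the spread between these samples only. That spread was estimated within the groups of all 6 samples, so the 2 heat-stressed samples also enter every P-value.

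NMN is a direct precursor of NAD, the electron carrier of respiration and the substrate of sirtuins and PARPs. A fully grown oocyte makes almost no new RNA from the GV stage until the embryonic genome is activated. Its transcripts were stored during growth, many with short poly(A) tails, and during maturation some are polyadenylated and translated while others are deadenylated and degraded. Cytoplasmic polyadenylation is directed by a U-rich element in the 3′UTR, the cytoplasmic polyadenylation element (CPE), which is bound by CPEB1. A difference in the RNA level of such cells can therefore come from growth, storage, tail length or decay, and where mRNA is purified by its tail, a change in tail length and a change in amount cannot be told apart.

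Of 23 oocyte markers in the expression table, 21 passed the minimum, while FIGLA stayed under it and BPI was at 0 in every sample. BMP15, the X-linked oocyte growth factor, was listed at 1606 and 1646 FPKM in control and 1820 and 1751 FPKM in NMN-supplemented oocytes, and the sum over all oocyte markers ran from 3584 to 4284 FPKM across the 6 samples, being 4004 and 4284 in control and 3858 and 3584 in NMN-supplemented oocytes. Of 21 oocyte markers tested, 1 rose and 8 fell (4.76% and 38.1%), as described below. Cumulus and granulosa markers summed to 24.7 and 20.6 FPKM in control and 16.2 and 21.5 FPKM in NMN-supplemented oocytes, with 8 of the 36 measured at 0 in every sample, among them AMH, INHA and AREG. Of the 4 cumulus markers that passed the minimum, KITLG rose at an adjusted P under 0.05 (limma). At an unadjusted P under 0.05, GREM1 and PGR were also higher and INHBA was lower. GREM1 was at 2.48 and 1.73 FPKM in control and 3.575 and 3.55 in NMN-supplemented oocytes, and PGR at 1.06 and 1.35 and 1.96 and 1.635 FPKM. INHBA, at 16.4 and 13.2 FPKM in control and 4.35 and 10.2 in NMN-supplemented oocytes, was the highest of the 4 in every sample. Blood, immune and endothelial markers summed to at most 1.93 FPKM, with 12 of 24 at 0 throughout. Transcripts of the mitochondrial genome took 66.4% and 61.7% of all FPKM in control and 74.2% and 74.7% in NMN-supplemented oocytes. The most frequent ratio between low values was taken as that of 1 read in each sample. By it, the reads behind 1 FPKM in NMN-supplemented samples 1 and 2 were 0.889 and 0.785 times those in control sample 1. In control sample 2 they were 1.16 times those in control sample 1. A given FPKM thus rested on fewer reads in the NMN-supplemented samples. Summed FPKM was higher there, at 239211 and 235475 against 178617 and 163929 in control, and the number of reads in each library was not derived. The part of the mitochondrial share and of the reads per FPKM in the differences below was not tested. In pooled oocytes, fewer cells that carry a transcript and less of it in each cell cannot be told apart.

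At an adjusted P under 0.05, 583 genes were higher (12.4% of those tested) and 432 were lower (9.17%) in NMN-supplemented oocytes than in control ones, 1015 in all (21.5%; limma on log2(FPKM + 1), Benjamini-Hochberg over all genes tested). Rises were many and small, with a median log2 fold change of 0.65 among the genes called higher, and falls were larger, with a median of -0.97 among those called lower. Only 41 called genes rose by over 1 on the log2 scale, while 200 fell by over 1. The median over all genes tested was 0.11. A limma fit of the 4 compared samples alone called 800 genes at an adjusted P under 0.05, 395 higher and 405 lower. All 1015 called genes had 2 control values outside the range of the 2 NMN-supplemented ones, which among all genes tested was the case for 2050 on the higher side (43.5%) and 1246 on the lower side (26.4%). At an unadjusted P under 0.05, 1208 genes were higher (25.6%) and 740 lower (15.7%), together 1948 (41.3%). Adjusted P-values were bunched, since the smallest was 0.0196, and fold changes on this scale understate the change of genes with few FPKM. The minimum was a mean over all 6 samples, so a gene could pass it through the groups in which it was high. Among the falls named below, NPM2, ATP5D and ACTB are examples, with both NMN-supplemented values under 1 FPKM.

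The number of calls rests on single samples. Without control replicate 2, 0 genes had an adjusted P under 0.05 in limma (1370 had an unadjusted P under 0.05). Without NMN-supplemented replicate 1 or replicate 2 there was 1 such gene each time, called in neither case with all samples in, and without control replicate 1 there were 373. Scaling also moved the balance of the list: 57.4% of called genes were higher as deposited, against 13.2% of 281 when samples were scaled to equal FPKM outside the mitochondrial genome. That scaling gave 43.4% of 558 once LOC100513953, a pseudogene at 40366 FPKM in heat-stressed replicate 1 and at 0 in the other samples, was left out of the sum, and removing the trend with transcript length and GC content gave 46.4% of 513. Of the 30 gene lists described below that hold a gene called higher, 28 hold none under scaling to equal FPKM outside the mitochondrial genome, and 8 hold none when LOC100513953 is also left out. Percentages beside the counts of a list are its shares called higher and lower, to be read against 12.4% and 9.17% over all genes tested, and a share near these is not a result about the list. With so few replicates an exact permutation test of any single gene cannot go below P = 0.333 (two-sided).

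**Figure D1:**
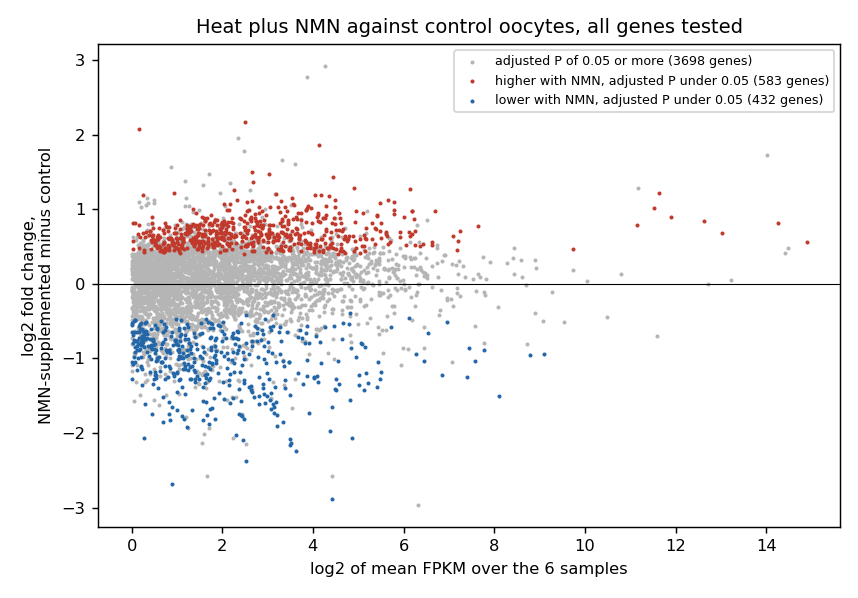
Log2 fold change (NMN-supplemented minus control, vertical) of the 4713 genes tested against the log2 of their mean FPKM over 6 samples (horizontal). Points in red are the 583 genes called higher and points in blue the 432 called lower, and the blue points reach further from 0 than the red ones.

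The genes with a symbol that had the largest called rises had varied roles, among them transcription, cell polarity and membrane traffic. NCOA3, a coactivator of nuclear receptors, was listed at 5.87 and 2.48 FPKM in control, 6.08 and 9.15 after heat alone and 12.6 and 12.5 after heat with NMN, a rise of 1.47 ± 0.35 (log2 fold change ± SE, as in all such values below; adjusted P = 0.0394, limma). Its control samples lay far apart and both were below the NMN-supplemented pair. LIN7C, a scaffold of polarity complexes, rose from 12.7 and 8.37 FPKM in control to 30.9 and 28.3 in NMN-supplemented oocytes, by 1.43 ± 0.19. KIAA1551, named RESF1 in human and known for silencing retroelements, rose from 19.9 and 15.0 to 44.3 and 42.4 FPKM, by 1.28 ± 0.20. POU3F4, a POU-domain transcription factor better known from brain and inner ear, was low throughout, with 1.4 and 0.484 FPKM in control and 3.41 and 3.37 in NMN-supplemented oocytes, a difference of 1.22 ± 0.25. In each of these genes the 2 NMN-supplemented values lay close together, and lying above both control values was a condition of naming them.

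CCP110, a cap protein of centrioles that also sets centriole number, rose from 5.87 and 4.38 FPKM in control to 13.2 and 12.7 in NMN-supplemented oocytes, by 1.2 ± 0.17. PANK3, a pantothenate kinase that starts coenzyme A synthesis, rose from 10.7 and 8.02 to 22.2 and 22.5 FPKM, by 1.18 ± 0.15. GOLT1B, of the Golgi traffic machinery, rose by 1.08 ± 0.15. It was among the better expressed of these genes, at 30.5 and 25.2 FPKM in control and 65.1 and 54.7 in NMN-supplemented oocytes. DNTTIP2, a nucleolar protein, CGGBP1, which binds CGG repeats, and FAM76B rose by 1.12 ± 0.25, 1.09 ± 0.22 and 1.12 ± 0.19. ND5, a mitochondrially encoded subunit of complex I that is also among the leading 12, is described below with the other mitochondrial transcripts.

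The largest falls included ZAR1 and TCL1B, which oocytes and early embryos are known to express. EMC6, a subunit of the membrane protein insertion complex of the endoplasmic reticulum, was listed at 33.9 and 47.1 FPKM in control, 25.4 and 12.2 under heat and 3.6 and 5.63 under heat plus NMN, a change of -2.89 ± 0.38 (adjusted P = 0.021, limma). ZAR1, a maternal-effect gene that holds stored mRNA in the oocyte, was listed at 17.3 and 23.8 FPKM in control, 11.8 and 13.8 with heat only and 4.3 and 2.84 with heat and NMN, and fell by 2.24 on the log2 scale (SE 0.23, adjusted P = 0.0202). Every NMN-supplemented value of ZAR1 was below every other sample's. TCL1B, of the TCL1 family of AKT cofactors, went from 19.1 and 25.8 to 4.35 and 4.07 FPKM, with a log2 fold change of -2.15 ± 0.17. SFN, the cell-cycle inhibitor 14-3-3 sigma, went from 15.6 and 22.3 to 5.04 and 2.6 FPKM (-2.08 ± 0.30). TUBB4B, a beta-tubulin, went from 13.4 and 25.9 to 2.22 and 5.28 FPKM (-2.13 ± 0.45), and is on an unplaced part of the assembly.

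Ribosome assembly and translation were the known roles of 4 other genes with large falls, IMP3, DDX28, MRPL36 and RPL7. IMP3, a component of the U3 snoRNP that processes ribosomal RNA, was listed at 36.3 and 53.4 FPKM in control and 7.93 and 11.9 in NMN-supplemented oocytes, a log2 fold change of -2.07 ± 0.45. DDX28, a helicase of mitochondrial ribosome assembly, went from 10.3 and 7.14 to 1.92 and 0.903 FPKM (-2.02 ± 0.38). MRPL36 and RPL7, proteins of the large ribosomal subunits of mitochondrion and cytosol, fell, with log2 fold changes of -1.83 ± 0.20 and -1.81 ± 0.38. PPDPF (-2.38 ± 0.16), MEA1 (-1.91 ± 0.38) and BLOC1S3 (-1.91 ± 0.47), of the complex that builds lysosome-related organelles, fell too. MEA1 and MRPL36 were low genes, with NMN-supplemented values of 0.365 and 0.27 FPKM and 1.02 and 0.684 FPKM.

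**Figure D2:**
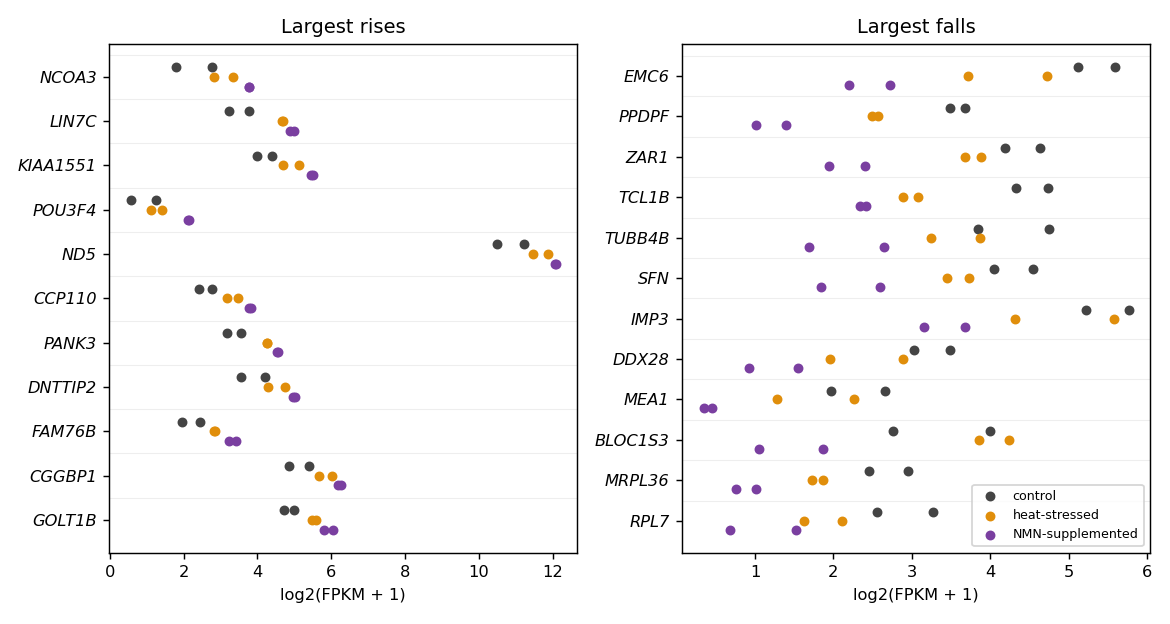
Log2(FPKM + 1) (horizontal) of 11 of the 12 genes with the largest rises (left) and the 12 with the largest falls (right) among called genes with a gene symbol, 1 point per sample, with 2 points each for control, heat-stressed and NMN-supplemented oocytes. The genes were chosen so that the control and NMN-supplemented points of a gene do not overlap.

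The 6 most abundant called nuclear genes in each direction follow, apart from WEE2, a rise described below with the maternal-effect genes. GDF9, the oocyte growth factor that acts on cumulus cells, was listed at 732 and 777 FPKM in control, 477 and 532 after heat alone and 435 and 353 after heat with NMN, and fell by 0.94 (SE 0.15, adjusted P = 0.0219, limma). FTL, the ferritin light chain, which stores iron, fell from 338 and 469 FPKM to 136 and 144 FPKM (-1.5 ± 0.19). DYNLL1, the light chain that dynein shares with other complexes, fell from 218 and 281 to 104 and 102 FPKM (-1.25 ± 0.17). SEM1, which the table places at the locus on chromosome 9 where RefSeq has a noncoding gene of that symbol, had control values far apart, 480.4 and 778 FPKM, against 313 and 315 FPKM in NMN-supplemented oocytes (-0.96 ± 0.24). The uncharacterized noncoding gene LOC102157885 and the pseudogene LOC100625510 fell, with log2 fold changes of -0.89 ± 0.10 and -1.03 ± 0.26. On the higher side PCBP1, a poly(C)-binding protein that stabilizes and silences mRNA, rose from 723 and 726 FPKM to 994 and 1004 FPKM, by 0.46 ± 0.10. HAS3, a hyaluronan synthase, rose from 127 and 102 to 184 and 189 FPKM, by 0.71 ± 0.14. CDC42SE1, a binding partner of CDC42, rose by 0.57 ± 0.11, and the protein-coding LOC100154647 and LOC100359361 by 0.46 ± 0.12 and 0.64 ± 0.14.

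Genes of the respiratory chain lie in the mitochondrial and the nuclear genome. All 13 protein-coding genes of the mitochondrial genome had positive differences, and 8 of them rose and 0 fell (61.5% and 0%). Their median log2 fold change was 0.81 beside 0.11 over all genes. ND5 was listed at 2390.2 and 1419.9 FPKM in control, 2839 and 3730.1 under heat and 4251 and 4319 under heat plus NMN, and rose by 1.22 ± 0.28. ND4, also of complex I, rose from 2849.6 and 2206 FPKM to 4456 and 4873 FPKM (0.89 ± 0.16), and CYTB, of complex III, from 6678 and 5868 to 9494 and 10576 FPKM (0.68 ± 0.14). ND6 rose by 1.02 ± 0.15. ND6 lies on the other strand beside ND5, and without a stated strand setting reads of the pair cannot be told apart where they overlap. ND2, COX2, ND1 and ATP6 rose by 0.85 ± 0.19, 0.81 ± 0.21, 0.79 ± 0.18 and 0.56 ± 0.14. Under quantile normalization none of the 13 was called and the median was 0.10. Equal FPKM outside the mitochondrial genome left 3 of them called, and 8 when LOC100513953 was left out of the sum.

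Of 66 nuclear genes of the respiratory chain in the expression table, 17 passed the minimum and were tested. Of these 17, 0 rose and 5 fell (0% and 29.4%), with a median of -0.35. With a minimum mean of 0.1 FPKM, 53 were tested and 0 called, with a median of -0.23. That setting called only 86 genes in all. With length and GC content removed 2 fell and the median was -0.18. Equal FPKM outside the mitochondrial genome left 1 fall, and 4 when LOC100513953 was left out of the sum. COX7C, of complex IV, fell from 10.8 and 10.8 FPKM to 5.0 and 5.66 FPKM (-0.90 ± 0.12), and ATP5D, the delta subunit of ATP synthase, from 1.75 and 3.56 to 0.412 and 0.369 FPKM (-1.35 ± 0.26). ATP5G2, NDUFA6 and COX6A1 fell, with log2 fold changes of -0.93 ± 0.17, -1.05 ± 0.20 and -0.99 ± 0.24. The control and NMN-supplemented values of these genes did not overlap, as in all called genes. Of 20 genes for mitochondrial dynamics, DNA and RNA, 2 rose and 1 fell (10% and 5%). The fusion GTPase MFN1 rose by 0.59 ± 0.12 from 1.63 and 1.97 FPKM to 3.21 and 3.22 FPKM. MTFR1 rose by 0.58 ± 0.12, and TIMM13, a chaperone of protein import, fell by 1.04. Of 13 genes of glycolysis, pyruvate use and the citric acid cycle, 1 rose and 1 fell (7.69% each). PDHX, the E3-binding component of pyruvate dehydrogenase, rose by 0.51 ± 0.11 and ALDOC, an aldolase, fell by 0.99.

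Enzymes and carriers of NAD, the cofactor that NMN is converted to, were mostly too low to test, and 9 of the 41 in the table passed the minimum. Of these, 2 rose and 0 fell (22.2% and 0%), with a median of 0.30. SLC25A51, the carrier that brings NAD into mitochondria, was listed at 14.7 and 12.7 FPKM in control and 24.3 and 20.3 in NMN-supplemented oocytes (0.66 ± 0.14). PARP14, an ADP-ribosyltransferase that consumes NAD, was listed at 2.48 and 1.88 and 4.44 and 4.59 FPKM (0.80 ± 0.16). In both genes the NMN-supplemented samples were the higher ones without overlap, as in all genes called higher. The other 7 did not pass.

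Of 78 genes for cytosolic ribosomal proteins in the expression table, 36 passed the minimum. Of these 36, 0 rose and 10 fell (0% and 27.8%). The median was -0.67, which became -0.24 with 3 falls when length and GC content were removed. With a minimum mean of 0.1 FPKM, 70 were tested and 0 called, with a median of -0.46. That setting called only 86 genes in all. RPLP1, of the ribosomal stalk, fell from 14.8 and 19.7 FPKM in control to 7.41 and 4.62 in NMN-supplemented oocytes (-1.39 ± 0.23). RPS24 fell from 5.72 and 7.1 to 2.66 and 2.62 FPKM (-1.02 ± 0.17), and RPS25 from 3.71 and 3.56 to 1.16 and 0.696 FPKM (-1.28 ± 0.22). RPL10, RPL10A, RPL6 and RPL27 fell, with log2 fold changes of -1.47 ± 0.32, -0.99 ± 0.23, -0.92 ± 0.19 and -0.81 ± 0.19. Genes for ribosomal proteins, EEF1A1, ACTB and tubulins have processed copies in the genome, and how reads were shared among copies is not given in the sources used here. Of 34 mitochondrial ribosomal proteins, 1 rose and 5 fell (2.94% and 14.7%), with a median of -0.27. With length and GC content removed 1 rose and 3 fell, and the median was -0.12. MRPL54 (-1.5 ± 0.17), MRPL57 (-1.73 ± 0.36), MRPS23 (-1.24 ± 0.29) and MRPL37 (-1.1 ± 0.15) fell, while MRPS16, of the small subunit, rose from 55.3 and 46.6 to 98.3 and 88.2 FPKM (0.86 ± 0.14).

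Of 26 translation factors, 0 rose and 3 fell (0% and 11.5%), with a median of -0.09. The share called lower was close to the 9.17% over all genes tested, and the 3 genes were elongation factors. EEF2, which moves the ribosome along the mRNA, fell from 4.17 and 5.35 FPKM to 1.29 and 1.69 FPKM (-1.21 ± 0.19). EEF1A1, which brings tRNA to the ribosome, fell from 107 and 106 to 52.9 and 57.0 FPKM (-0.94 ± 0.11), and EEF1B2, its exchange factor, fell by 1.04. At an unadjusted P under 0.05 (limma), 5 of the 26 were higher and 6 lower, beside 25.6% and 15.7% of all genes tested. EIF4A2, EIF1AX and EIF4G2 were among the 5, with differences of 0.44 ± 0.13, 0.49 ± 0.13 and 0.59 ± 0.18.

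Chaperones, which heat is known to induce in many cells, were called in both directions. Of 37 heat shock proteins and chaperones, 1 rose and 5 fell (2.7% and 13.5%), with a median of -0.13. HSPA8, the constitutive HSP70, was listed at 40.1 and 46.3 FPKM in control, 37.7 and 39.0 with heat only and 15.0 and 17.6 with heat and NMN, and fell by 1.35 (SE 0.13). DNAJB1, the inducible HSP40 that works with HSP70, was listed at 27.1 and 25.4, 13.4 and 14.7 and 10.9 and 10.2 FPKM in the same order, and fell by 1.24. HSP90AA1, the inducible HSP90, was listed at 60.05 and 57.5, 42.6 and 41.3 and 23.5 and 33.1 FPKM, and fell by 1.05. HSPA5, the HSP70 of the endoplasmic reticulum, and DNAJC14 fell, with log2 fold changes of -0.80 ± 0.13 and -0.91 ± 0.14. DNAJB4 was the member that rose, from 3.66 and 3.82 to 6.36 and 6.87 FPKM (0.68 ± 0.11).

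Of 17 genes of the integrated stress and unfolded protein responses, 1 rose and 5 fell (5.88% and 29.4%), with a median of -0.26. ATF4, the transcription factor of the integrated stress response, fell from 21.8 and 21.1 FPKM to 7.99 and 9.2 FPKM (-1.23 ± 0.14). The genes CHAC1, ASNS and ATF5, which ATF4 is known to induce, fell, with log2 fold changes of -1.6 ± 0.34, -0.80 ± 0.13 and -0.72 ± 0.17. CALR, the calcium-binding chaperone calreticulin, fell from 8.68 and 12.3 to 3.65 and 1.98 FPKM (-1.61 ± 0.32). ERN1, the sensor IRE1 of unfolded proteins, rose from 2.04 and 1.51 to 3.7 and 3.85 FPKM (0.79 ± 0.13). Of 21 proteasome genes, 0 rose and 2 fell (0% and 9.52%). The median was -0.08, and 0.12 once length and GC content were removed. PSMB5, a catalytic subunit, fell by 1.2, and the other was SEM1 at its noncoding locus.

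Redox genes went both ways. Of 23 tested, 1 rose and 5 fell (4.35% and 21.7%), with a median of 0.00. PRDX2, a peroxiredoxin, fell from 9.81 and 15.9 FPKM to 3.25 and 4.65 FPKM (-1.47 ± 0.26), and GPX3, a secreted glutathione peroxidase, fell by 1.06. Ferritin fell in both chains, with FTH1, the heavy chain, at -0.70 ± 0.18 beside FTL above, and GLRX5, which serves iron-sulfur clusters, fell by 0.74. GCLC, which catalyzes the limiting step of glutathione synthesis, rose from 7.63 and 7.02 to 9.78 and 10.6 FPKM (0.42 ± 0.11). GCLM and GSR, which also serve glutathione, had differences of 0.44 ± 0.16 and 0.34 ± 0.12 that did not pass. Of 16 apoptosis genes, 1 rose and 1 fell (6.25% each). BIRC3, an inhibitor of apoptosis, rose by 0.85 ± 0.18 and BCL2L1, the survival factor BCL-XL, fell by 0.39.

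Of 15 lysosome genes, 1 rose and 5 fell (6.67% and 33.3%), with a median of -0.15. CTSB, cathepsin B, fell from 12.2 and 14.3 FPKM to 3.49 and 3.82 FPKM (-1.61 ± 0.17). The other 4 falls were subunits of the proton pump of the lysosome, ATP6V0B, ATP6V0C, ATP6V1G1 and ATP6V1E1, with log2 fold changes of -1.45 ± 0.30, -1.27 ± 0.12, -0.96 ± 0.20 and -0.77 ± 0.16, while the pump's subunit ATP6V0A2 rose by 0.48 ± 0.12. Of 21 autophagy genes, 3 rose and 3 fell (14.3% and 14.3%). GABARAP, which builds the autophagosome membrane, fell from 6.49 and 7.16 to 2.22 and 1.08 FPKM (-1.59 ± 0.23), and the mitophagy factors PHB2 and PINK1 fell, with log2 fold changes of -0.93 ± 0.11 and -0.91 ± 0.18. ATG2B, which transfers lipid to the growing membrane, rose from 1.57 and 1.72 to 3.42 and 2.98 FPKM (0.67 ± 0.12), and NBR1 and RB1CC1 rose by 0.62 ± 0.12 and 0.60 ± 0.15.

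Of 13 oocyte-secreted and zona pellucida proteins, 1 rose and 4 fell (7.69% and 30.8%). Their median of -0.22 became 0.08 when length and GC content were removed. ZP3, the zona protein best known for sperm binding, was listed at 24.7 and 26.3 FPKM in control, 12.3 and 14.2 after heat alone and 11.9 and 8.38 after heat with NMN, and fell by 1.26 (SE 0.18). ZP4, another zona protein, fell from 22.1 and 19.5 to 10.6 and 8.86 FPKM (-1.02 ± 0.21). ASTL, the ovastacin protease that cleaves the zona after fertilization, fell from 30.4 and 39.6 to 18.6 and 14.4 FPKM (-1.04 ± 0.21). GDF9 was the fourth, while its partner BMP15 had a difference of 0.13 ± 0.11 (adjusted P = 0.396). The 1 rise in this list was KITLG, kit ligand, which is made chiefly by granulosa cells. It went from 2.25 and 2.02 to 3.34 and 3.44 FPKM (0.49 ± 0.11).

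Of 33 maternal-effect and oocyte transcription genes, 5 rose and 8 fell (15.2% and 24.2%), with a median of -0.09. PADI6, of the subcortical maternal complex, was listed at 7.23 and 11.5 FPKM in control, 4.62 and 4.74 under heat and 1.6 and 2.43 under heat plus NMN, and fell by 1.76. DPPA5, an RNA-binding protein of pluripotent cells and oocytes, fell from 158 and 190.3 to 80.4 and 67.3 FPKM (-1.22 ± 0.15). Members of the NLRP family that are typical of oocytes went both ways, since NLRP9, NLRP7 and NLRP2 fell, with log2 fold changes of -1.29 ± 0.18, -1.01 ± 0.14 and -0.89 ± 0.15 and NLRP4 rose by 0.58 ± 0.15. NPM2, the oocyte nucleoplasmin, fell from 1.42 and 1.92 to 0.361 and 0.17 FPKM (-1.08 ± 0.16). It passed the minimum mean only through its control and heat-stressed values. TLE6 fell by 0.77. WEE2, the oocyte kinase that holds CDK1 inactive, rose from 157 and 134 FPKM to 251 and 249 FPKM (0.78 ± 0.12). UHRF1, ACCSL and TDRD1 rose by 0.58 ± 0.11, 0.55 ± 0.12 and 0.50 ± 0.12.

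**Figure D3:**
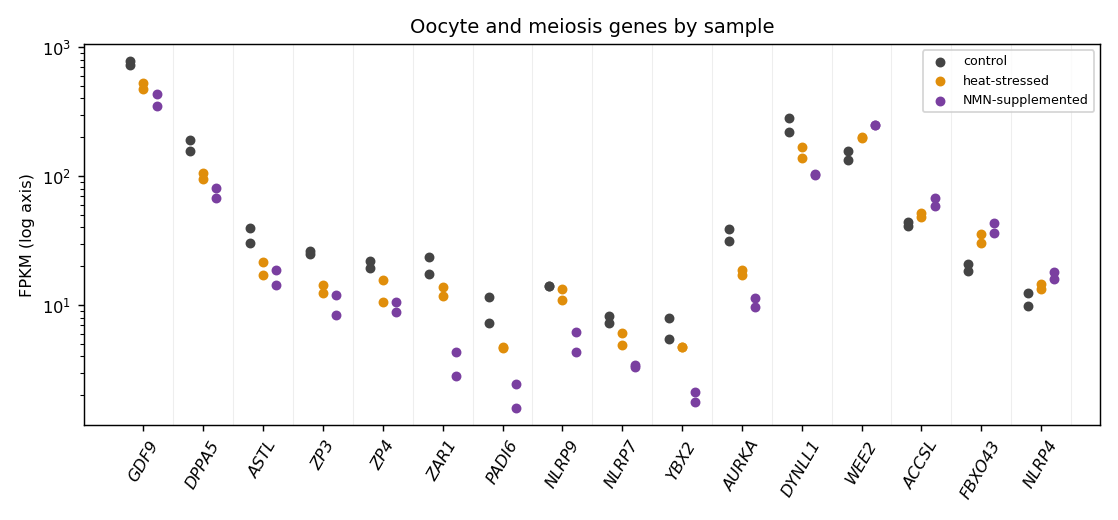
FPKM on a log axis (vertical) of 16 oocyte and meiosis genes (horizontal), 1 point per sample, with 2 points each for control, heat-stressed and NMN-supplemented oocytes. Control points lie above NMN-supplemented points from GDF9 to DYNLL1 and below them from WEE2 to NLRP4.

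Of 37 genes that store, tail and degrade maternal mRNA, 7 rose and 3 fell (18.9% and 8.11%), and the median was 0.28. CNOT6, CNOT6L and CNOT7, deadenylases of the CCR4-NOT complex that starts maternal mRNA decay, rose by 0.73 ± 0.13, 0.58 ± 0.12 and 0.74 ± 0.16. CNOT6L was listed at 1.73 and 1.77 FPKM in control and 2.98 and 3.26 in NMN-supplemented oocytes. DCP2, the decapping enzyme, and PAN3, of another deadenylase, rose by 0.80 ± 0.17 and 0.56 ± 0.11. YTHDF3, a reader of N6-methyladenosine, rose from 3.89 and 2.92 to 6.8 and 7.2 FPKM (0.87 ± 0.15), while its relative YTHDF1 fell by 0.92. YBX2, the germ-cell protein that coats stored mRNA, fell from 5.45 and 7.91 to 1.79 and 2.13 FPKM (-1.36 ± 0.18), and ZFP36L2, which directs decay through AU-rich elements, fell by 1.05.

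Genes of meiotic arrest and of the M-phase kinase MPF changed in both directions. Of 30 tested, 6 rose and 3 fell (20% and 10%), with a median of 0.11. FBXO43, the EMI2 protein that keeps the egg in metaphase II, was listed at 20.9 and 18.5 FPKM in control, 30.6 and 35.3 with heat only and 43.4 and 36.1 with heat and NMN, and rose by 0.97 ± 0.15. MASTL, the Greatwall kinase, rose by 0.64 ± 0.16 and its substrate ENSA fell by 0.56. CCNA2, cyclin A2, rose by 0.60 ± 0.13, FBXO30 by 0.72 ± 0.14 and PRKAR1A, a regulatory subunit of protein kinase A, by 0.51 ± 0.11. CDKN1C, a CDK inhibitor, fell by 0.81 and AKAP1, an anchor of protein kinase A on mitochondria, fell by 0.96.

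Of 26 genes for the anaphase-promoting complex, spindle checkpoint and cohesin, 4 rose and 3 fell (15.4% and 11.5%), with a median of 0.28. KNL1, the kinetochore scaffold, rose by 0.96 ± 0.25. SGO2, the shugoshin that protects centromeric cohesin in meiosis, rose from 4.62 and 3.5 FPKM to 8.62 and 7.7 FPKM (0.86 ± 0.16). SMC2, of condensin, and PDS5A, of cohesin, rose by 0.65 ± 0.12 and 0.51 ± 0.12. The falls were UBE2S and ANAPC11, the ubiquitin-conjugating and RING partners of the anaphase-promoting complex, with -0.53 ± 0.14 and -0.60 ± 0.16, and MAD2L1BP, which removes MAD2, with -0.75 ± 0.17. ANAPC11 became positive (0.08) once length and GC content were removed.

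Among 44 spindle genes 4 rose and 8 fell (9.09% and 18.2%), with a median of 0.11. AURKA, the kinase that assembles the spindle poles of an oocyte without centrioles, was listed at 31.6 and 39.1 FPKM in control, 18.7 and 17.0 after heat alone and 9.75 and 11.4 after heat with NMN, and fell by 1.65. PLK1, polo-like kinase, fell from 7.15 and 6.68 to 3.92 and 3.64 FPKM (-0.73 ± 0.11). The tubulins TUBB2B, TUBB and TUBA1B fell, with log2 fold changes of -1.37 ± 0.22, -0.91 ± 0.14 and -0.67 ± 0.16, and tubulin genes share much of their sequence. The 4 rises were the kinesins KIF20B, KIF5B and KIF14, by 0.98 ± 0.19, 0.69 ± 0.12 and 0.66 ± 0.15, and HAUS3, of the augmin complex that branches microtubules, by 0.66 ± 0.13. DSN1, of the kinetochore, fell by 0.52.

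Of 21 genes of actin and the cortex, 4 rose and 1 fell (19.0% and 4.76%). SPIRE1, which nucleates the actin that moves the meiotic spindle, rose from 2.48 and 2.29 FPKM to 4.11 and 3.8 FPKM (0.55 ± 0.11). ACTR2, of the ARP2/3 complex, rose by 0.75 ± 0.11, RDX, radixin, by 0.69 ± 0.18 and ANLN, anillin of the cleavage furrow, by 0.51 ± 0.12. ACTB, cytoplasmic beta-actin and a common reference gene, fell from 2.56 and 2.81 to 0.575 and 0.582 FPKM (-1.22 ± 0.12).

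Of 28 genes of DNA repair and the damage response, 6 rose and 1 fell (21.4% and 3.57%), with a median of 0.19. BRCA2 was listed at 13.1 and 10.3 FPKM in control, 14.9 and 19.4 under heat and 22.4 and 24.2 under heat plus NMN (0.95 ± 0.18), and its partner PALB2, which brings it to breaks, at 18.5 and 14.1, 21.1 and 25.2 and 34.0 and 30.6 FPKM (0.96 ± 0.17). MSH6, of mismatch repair, LIG4, of end joining, and CHEK1, the checkpoint kinase, rose by 0.85 ± 0.20, 0.79 ± 0.16 and 0.62 ± 0.14. PPM1D, the phosphatase that ends the damage response, rose by 0.89 ± 0.12 from 3.3 and 2.83 FPKM to 6.72 and 6.28 FPKM. LIG3, the ligase of mitochondrial and base excision repair, fell by 0.93.

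Of 26 chromatin modifiers, 4 rose and 1 fell (15.4% and 3.85%). TET3, the oocyte dioxygenase that oxidizes 5-methylcytosine, rose by 0.62 ± 0.16, KDM1B, the histone demethylase needed for maternal imprints, by 0.57 ± 0.13 and NASP, a histone chaperone, by 0.47 ± 0.12, beside UHRF1 above. SETDB1, a methyltransferase for histone H3 lysine 9, fell by 0.83. Of 6 histone genes and processing factors LSM10, of the U7 snRNP, fell by 1.31. Of 16 Mediator subunits 3 rose and 1 fell (18.75% and 6.25%). MED14, MED13 and MED17 were at 0.69 ± 0.13, 0.65 ± 0.15 and 0.40 ± 0.11 and MED11 at -1.12 ± 0.20.

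Of 55 splicing factors, 9 rose and 0 fell (16.4% and 0%), with a median of 0.13 close to that of all genes; with length and GC content removed 3 were higher and 3 lower. SRPK1, the kinase of SR proteins, rose from 6.84 and 6.94 FPKM to 14.0 and 13.5 FPKM (0.90 ± 0.10), and SRSF3, an SR protein, from 7.85 and 7.74 to 15.2 and 14.9 FPKM (0.87 ± 0.10). PTBP3, HNRNPA3 and SF3B1 rose by 0.80 ± 0.17, 0.71 ± 0.14 and 0.57 ± 0.11. Of 47 genes of ubiquitin conjugation and removal, 9 rose and 2 fell (19.1% and 4.26%). ITCH, a ubiquitin ligase, rose by 0.94 ± 0.14, and the deubiquitinases USP45, USP53 and USP38 by 0.83 ± 0.13, 0.81 ± 0.14 and 0.74 ± 0.15, while the deubiquitinase OTUB1 fell from 5.05 and 9.67 to 1.64 and 1.85 FPKM (-1.55 ± 0.31). Of 25 nuclear pore and transport genes 2 rose and 1 fell (8% and 4%). TNPO1 and NUP214 rose by 0.82 ± 0.12 and 0.81 ± 0.15, and NXT1, of mRNA export, fell by 1.05.

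Calcium handling, on which egg activation depends, held 4 rises and 1 fall among 14 genes (28.6% and 7.14%), with a median of 0.35. ATP2A2, the SERCA2 pump that fills the calcium store, rose from 8.78 and 6.67 FPKM to 12.6 and 13.5 FPKM (0.70 ± 0.16). ATP2B1, the pump that exports calcium at the plasma membrane, rose from 2.57 and 2.06 to 4.82 and 4.59 FPKM (0.79 ± 0.14). YES1, a SRC-family kinase, and SLC30A1, a zinc exporter, rose by 0.75 ± 0.12 and 1.06 ± 0.26. The fall was CALR, which binds calcium in the store.

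Of 36 genes of vesicle traffic, 6 rose and 1 fell (16.7% and 2.78%). RAB33B, RAB6A and RAB2A, small GTPases of the Golgi, rose by 0.74 ± 0.15, 0.73 ± 0.19 and 0.50 ± 0.13. VAMP7 and STX3, SNARE proteins of fusion, rose by 0.62 ± 0.13 and 0.46 ± 0.12, and the early endosome GTPase RAB5C fell by 0.83. Of 16 genes of lipid and sterol metabolism, 2 rose and 0 fell (12.5% and 0%), with a median of 0.34. ACSL3, which activates fatty acids for lipid droplets, rose from 9.15 and 7.9 FPKM to 17.3 and 17.3 FPKM (0.94 ± 0.12), and HMGCS1, of the mevalonate pathway, by 0.49 ± 0.12.

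Of 28 signalling genes, 4 rose and 1 fell (14.3% and 3.57%), the fall being SFN. ACVR2B, an activin receptor, rose from 3.22 and 2.23 FPKM to 6.33 and 6.39 FPKM (0.99 ± 0.16). YAP1, the maternal transcription coactivator of the Hippo pathway, and LATS1, the kinase that inhibits it, rose by 0.76 ± 0.11 and 0.90 ± 0.17. CTNNB1, beta-catenin, rose by 0.61 ± 0.14. The study also ran RT-PCR on CSNK2B, MED25, KDM6B and PLK3. It gave their RNA-seq results for heat-stressed against control and for NMN-supplemented against heat-stressed oocytes. In the contrast described here, which is neither of these, none of them passed the test, and this is no check of that RT-PCR. CSNK2B was at 3.39 and 5.94 FPKM in control and 4.27 and 4.39 in NMN-supplemented oocytes (-0.05 ± 0.34), MED25 at 2.76 and 2.3 and 2.55 and 2.76 FPKM (0.05 ± 0.16), KDM6B at 2.11 and 1.86 and 1.48 and 1.39 FPKM (-0.29 ± 0.17) and PLK3 at 6.17 and 5.53 and 5.47 and 5.3 FPKM (-0.10 ± 0.12). Their adjusted P-values were 0.92, 0.82, 0.237 and 0.58.

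**Figure D4:**
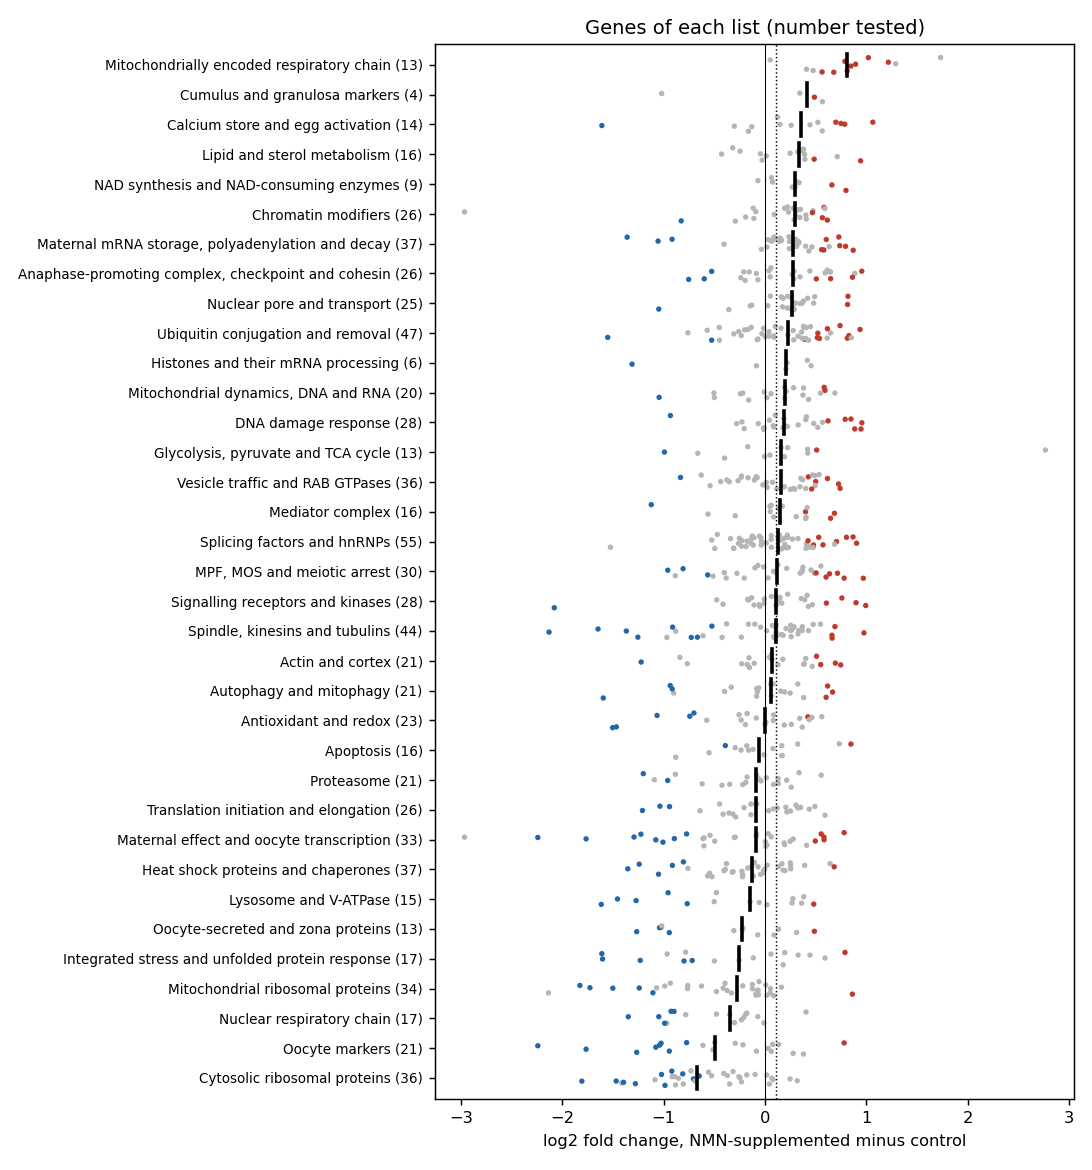
Log2 fold change (NMN-supplemented minus control, horizontal) of each tested gene of 35 lists (rows, with the number tested), with red and blue points for genes called higher and lower, grey points for the rest, a black bar at each list's median and a dotted line at 0.11, the median of all genes tested. Lists run from cytosolic ribosomal proteins, with a median of -0.67, to mitochondrially encoded genes, with 0.81.

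Genes that rose and genes that fell differed in the build of their transcripts. The longest RefSeq transcript had a median length of 4832 bases among 570 genes called higher, 1983 bases among 423 called lower and 2855 bases among 3541 not called. Median GC content was 41.8%, 55.2% and 48.0% in the same order, and the median 3′UTR was 2372, 575 and 1015 bases long. From the shortest to the longest of 10 equal bins of transcripts, the share called higher went from 1.32% to 25.8% and the share called lower from 17.4% to 1.98%. From the lowest to the highest of 10 bins of GC content, the share called higher went from 30.2% to 1.32% and the share called lower from 0.881% to 17.8%. FPKM divides by transcript length. The part of length and GC content in the measurement and in the cells was not tested beyond the fit with their trend removed, which called 238 genes higher and 275 lower, 373 of them called without it.

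**Figure D5:**
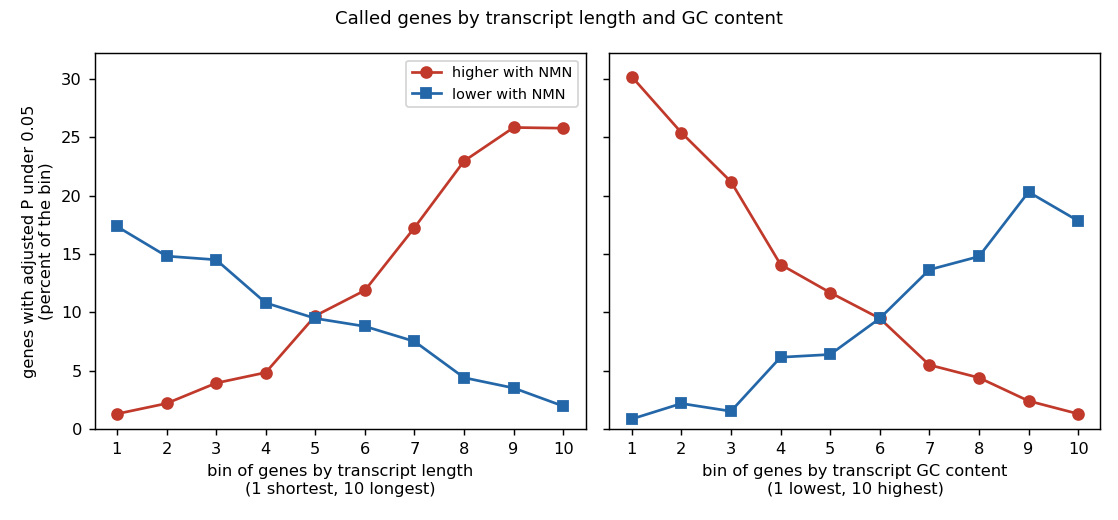
Percent of genes called higher (red circles) and lower (blue squares) in NMN-supplemented oocytes (vertical) in 10 equal bins of transcript length (left) and of GC content (right), each of 452 to 455 genes. The higher share climbs with length to 25.8% and falls with GC content from 30.2%, and the lower share does the reverse.

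The 3′ ends of these transcripts were read for the CPE, searched as TTTTAT or TTTTAAT on the sense strand of the last 100 bases of the longest RefSeq transcript, and for the cleavage signal AATAAA, whose first 3 bases can be the last 3 of TTTTAAT. Among 3906 genes with a 3′UTR of at least 100 bases, 25.7% held a CPE there. It was held by 180 of 539 genes called higher (33.4%), by 34 of 347 called lower (9.80%) and by 26.1% of those not called. The signal AATAAA was held by 77.0%, 53.0% and 69.4% of them. Both motifs are rich in A and T, as were the 3′ ends of genes called higher, with a median GC content of 28% in that window against 42% for genes called lower. Within the lowest quartile of that GC content a CPE was held by 43.9% of 237 genes called higher, 18.8% of 16 called lower and 39.5% of 816 not called. In the next quartile the shares were 32.0%, 16.7% and 28.3%, in the third 22.6%, 8.0% and 21.96%, and in the highest they were 2.5%, 8.41% and 12.1%. A match describes these letters in this window and is not a tested site.

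Of the 12 genes with the largest rises, 11 had such a 3′UTR and 4 of those held a CPE, while of the 12 with the largest falls 11 had one and 0 held a CPE. The windows below, of 30 bases each on the sense strand from RefSeq Sscrofa11.1, show 3 of those 4 rises, with the CPE in capitals.
KIAA1551 (chr5:42263630-42263659, - strand): tcagaagtcttgTTTTATacttgttgaact
CCP110 (chr3:26160240-26160269, - strand): ttatactttaaTTTTAATtttcactagttt
GOLT1B (chr5:51939480-51939509, - strand): cctctcaataaaagggtacTTTTATattaa
The CPE of GOLT1B ended 5 bases before the transcript's end, after an aataaa, while those of CCP110 and KIAA1551 stood 57 and 73 bases from it. Of those 11 falls, 5 held an AATAAA and the rest held neither motif, while 8 of the 11 rises held an AATAAA. The next windows show 4 of these 5 falls, which had no CPE, with the AATAAA in capitals.
ZAR1 (chr8:38391577-38391606, + strand): acaaagctgtcaAATAAAagcattgcaaaa
SFN (chr6:84189795-84189824, + strand): atgtttcctctcAATAAAgttcccctgtga
IMP3 (chr7:58024466-58024495, + strand): tctcctaatgccAATAAAtggcttaactac
DDX28 (chr6:28615472-28615501, - strand): tttcatgtgaaaAATAAAgtcgattttggc
These signals stood 24, 12, 13 and 23 bases from the end. Falls with a CPE also occurred, as in YBX2 and EEF1A1, whose windows follow with the CPE in capitals.
YBX2 (chr12:52635427-52635456, - strand): cctctgaagccaTTTTATgaaccgtcatgt
EEF1A1 (chr1:92424970-92424999, + strand): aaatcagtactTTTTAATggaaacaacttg
Among the rises named above, LIN7C, PANK3, DNTTIP2 and FAM76B held an AATAAA and no CPE, and NCOA3, POU3F4 and CGGBP1 held neither in that window.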

How the data were processed

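RNA of 6 pig oocyte samples was sequenced, 2 each from the control, heat and heat plus NMN treatments. The authors deposited FPKM per gene and sample. Per the study's methods, reads were trimmed with cutadapt and aligned with tophat2 to the susScr11 build, and the submitters' processing notes name Cufflinks 2.2.1, Cuffnorm and Cuffdiff. Columns with the authors' own comparisons (fold changes, P-values) were not used.

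Genes with a mean of at least 1 FPKM over the 6 samples were tested as log2(FPKM + 1) with limma 3.58.1 in R 4.3.3 (trended moderation, 3 groups in 1 fit, Benjamini-Hochberg), which had been tested on simulated data. The simulated data had independent normal noise and no trend with length or GC content and no scaling shift, so they do not bear on those. All 29861 symbols matched RefSeq Sscrofa11.1, and 1572 tested genes shared a locus with another gene. Depth per FPKM relative to control replicate 1 was the most frequent ratio of 2 samples' values, in steps of 0.02 on the log2 scale, among genes alone in their locus with a mean under 0.03 FPKM. It ran from 0.732 in heat-stressed replicate 1 to 1.16 in control replicate 2. The number of reads itself was not derived, so no counting interval is given. The comparison and the gene lists were chosen with earlier results of these data known. Lists are described by counts and medians of the members that passed the minimum, with no test.

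Named genes were the 12 with the largest called change in each direction with a gene symbol and no overlap, up to 3 a list and direction by smallest P among those with an unadjusted P under 0.05, the 6 most abundant called nuclear genes each way, and CSNK2B, MED25, KDM6B and PLK3. BMP15 and the other called genes of a list were named outside that rule, after their values were seen, and a few genes are not reported here. The 19 alternatives varied the pseudocount, the minimum, scaling, moderation, the samples, a replicate block and the threshold, and 1 removed the length and GC trend. Scaling without LOC100513953 was chosen after seeing the data.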

Additional observations from a re-analysis of the deposited data

How the results depend on the processing

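Left-out samples decide the number of calls. Over the fits without 1 sample, genes with an adjusted P under 0.05 ranged from 0 to 798, those higher from 0 to 396 and those lower from 0 to 402, and genes with an unadjusted P under 0.05 from 1233 to 1941 (653 to 1167 higher, 538 to 775 lower). The number called at an adjusted P under 0.05 was 86 (15 higher, 71 lower) with a minimum mean of 0.1 FPKM, 546 (375 and 171) with 5 FPKM and 0 (0 and 0) with no minimum. At an unadjusted P it was 3236 (1692 lower), 791 (561 and 230) and 3700 (2034 lower) under these minimums. Equal FPKM outside the mitochondrial genome gave 281 (37 and 244; unadjusted 789, with 279 higher), and 558 (242 higher) without LOC100513953, chosen after seeing the data. The fit with the length and GC trend removed gave 513 (238 and 275), and a log2 fold change over 1 in size left 241 (41 and 200; unadjusted 309, with 52 and 257). The cause was not tested, apart from the number of genes or samples that a setting itself changes. Pseudocount 0.1, quantile and median scaling, the 4 compared samples alone and no moderation trend kept the totals of called genes, higher and lower, within 1.5 times.

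A replicate block called 445 genes (192 higher, 253 lower). The labels give only numbers, and deviations of same-numbered control and NMN-supplemented samples correlated at -0.01, so these numbers were not taken as pairs.

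Of 189 named genes, 149 were called, and 4 turned direction somewhere. With length and GC content removed these were ANAPC11 (0.0816), CSNK2B (0.26) and PLK3 (0.20), and without control replicate 2 CSNK2B and MED25 (over the left-out samples -0.38 to 0.28 and -0.0417 to 0.15). Of the 34 to 36 list medians, 7 turned sign with a minimum of 5 FPKM, 6 with 0.1 FPKM, 9 with none, 3 with length and GC content removed and at most 4 in any other setting. Those whose main value exceeded the SD between replicates were, at 5 FPKM, translation factors (0.21), lysosome (0.28), spindle (-0.0433) and cumulus genes (-1.02), at 0.1 FPKM mitochondrial dynamics (-0.0586), splicing (-0.0229) and lipid genes (-0.0656), and with no minimum mitochondrial dynamics (-0.0191), spindle (-0.0016), actin (-0.00056), splicing (-0.0304) and lipid genes (-0.0224). That of oocyte-secreted and zona proteins was 0.0804 with length and GC content removed. Unknown read numbers limit what can be said of genes with few FPKM.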

Other observations

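Genes other than protein-coding ones were part of the tested table. Of 361 long noncoding RNAs, 25 were higher and 40 lower in NMN-supplemented than in control oocytes at an adjusted P under 0.05 (limma), of 161 pseudogenes 5 were higher and 8 lower, and of 23 transcribed pseudogenes 0 were higher and 6 lower. Of 4153 protein-coding genes, 553 were higher and 377 lower. Of the 1015 called genes, 144 carry only a LOC number as their name, and 326 lie in a locus that the table shares among genes.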
